A study of Mus musculus with 40 samples.

Results

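A set of 10 acute phase genes was followed in liver and kidney of mice given phenobarbital (PB) and of control mice: the orosomucoids Orm1, Orm2 and Orm3, the serum amyloid A genes Saa1, Saa2, Saa3 and Saa4, lipocalin 2 (Lcn2), haptoglobin (Hp) and serum amyloid P component (Apcs). They were taken by gene symbol from the platform annotation. The 10 genes have 12 probe sets of the 45037 on the array (18193 genes with 1 symbol in all), 2 each for Saa1 and Saa4 and 1 for every other gene, and no probe set listed a member together with another gene. The animals were male B6C3F1/Crl mice, the offspring of a C57BL/6 male and a C3H/He female, 29 to 32 days old on delivery and acclimatised for 5 days. The PB group drank water with 0.05% (w/v) phenobarbital freely for 28 days, and the control group carried the label Control with no dose. Liver and kidney RNA of 10 PB and 10 control mice gave 40 Affymetrix arrays, 1 array per tissue and mouse. Donor numbers 11 to 20 mark the PB mice and 1 to 10 the control mice.

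Acute phase proteins are plasma proteins whose synthesis in hepatocytes rises during inflammation or injury. Interleukin 6 acts through its receptor, JAK kinases and STAT3, and interleukin 1 and TNF through NF-kB, while C/EBP factors and the glucocorticoid receptor act at many of the same promoters. In mice, serum amyloid A proteins, orosomucoids, haptoglobin and serum amyloid P are classical members of the response, and Lcn2 is made by hepatocytes and by neutrophils and injured kidney tubules.

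Values are MAS5 signals, linear fluorescence intensities scaled on each array. A probe set was tested where its mean signal reached 50 in either group, and was called where limma gave a Benjamini-Hochberg adjusted p under 0.05 over all probe sets tested in that tissue. Each tissue had high signal of its own markers. Hepatocyte markers summed to between 144695 and 193871 in PB livers and between 150407 and 198894 in control livers, and kidney epithelial markers to between 57545 and 71369 in PB kidneys and between 53922 and 72408 in control kidneys. Cyp2b10, the classical target of the receptor that PB activates, read 9213 to 13081.9 in PB livers and 2.3 to 51.2 in control livers over its 3 probe sets. Control liver 2 had the lowest correlation with its group (median r 0.953). Control liver 5 stood apart in kidney epithelial markers, which summed to 1823.8 there, 165.5 to 514.6 in PB livers and 172.4 to 500.1 in the other control livers. It also had the lowest control signal of Orm1, Saa3, both Saa4 probe sets, Lcn2 and Apcs. Without it the same 4 member probe sets were called in liver, with log2 fold changes of 3.09 for Orm3, 1.46 for Orm2 and -0.75 and -1.55 for Saa4. Fat cell markers summed to 1191.5 in PB liver 20 and 219.6 to 437.1 in the other PB livers. In control livers the sum was 251.1 to 971.4, highest in liver 2. PB liver 20 had the lowest PB signal of Orm1, Orm2, both Saa1 probe sets, Saa2, Saa4 1419318_at, Hp and Apcs. The part of fat cell RNA in these signals was not tested. RNA was bulk, so fewer cells of a type and less RNA per cell cannot be told apart.

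In liver, Orm3 and Orm2 rose, Saa4 fell on both of its probe sets, and the other 7 genes were not called. All 12 probe sets passed the filter on low signal. Of these, 2 were called higher, against 5.88% of the 18981 probe sets tested in liver, and 2 were called lower, against 6.43%. A fold of at least 1.5 between the means with an unadjusted p of at most 0.001, the thresholds of the study's methods but here with the p of limma, was met by Orm3 and both Saa4 probe sets, 3 of 12 beside 2.4% of all probe sets tested. With the p of the methods' t-test 2 of 12 met them on log2 signal, beside 401 of all 18981 probe sets. On linear signal 1 of 12 met them, beside 373 of 18981. The study's own p for Saa4, given for 1 probe set, was above 0.001. Orm3 was the single member whose PB and control livers did not overlap, a property of 1.36% of all probe sets.

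**Figure D1:**
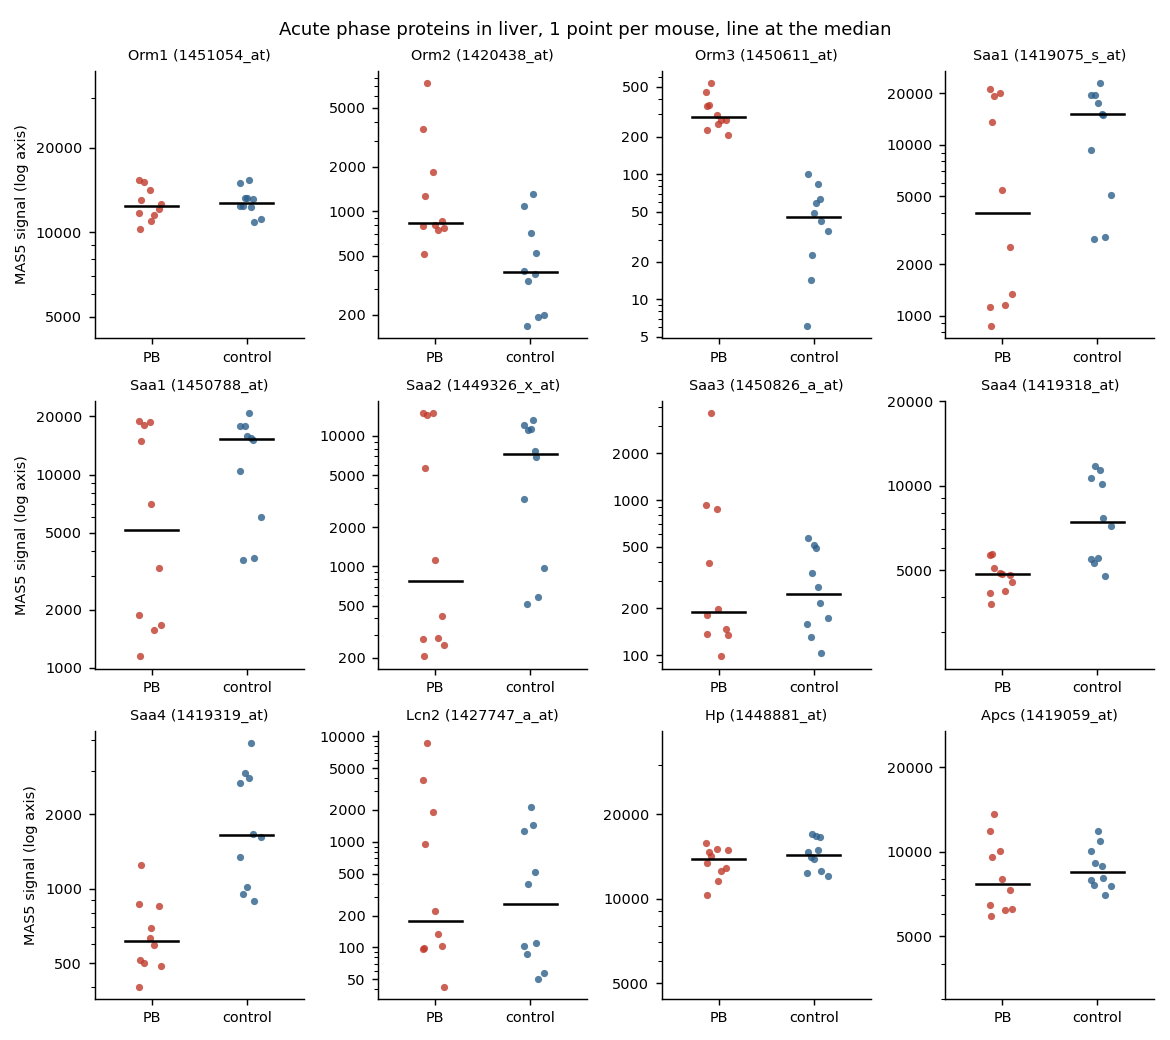
MAS5 signal (log axis, scaled to each panel) of the 12 acute phase probe sets in the liver of each mouse, PB left and control right, with a line at the median of 10. The 10 Orm3 points of PB livers lie above all 10 control points, 9 of 10 PB points of Saa4 1419319_at lie below all control points, and Saa1, Saa2, Saa3 and Lcn2 spread widely within both groups.

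Orosomucoids, also called alpha-1-acid glycoproteins, are plasma lipocalins that bind basic drugs and steroids. The 3 mouse genes lie side by side on chromosome 4 (GRCm38.p6), in the order Orm1 (63344556 to 63348163), Orm3 (63356069 to 63359506) and Orm2 (63362449 to 63365877). Orm3 read 205 to 537 in PB livers, with a median of 284, and 6.1 to 100.2 in control livers, with a median of 45.4. Every PB liver lay above every control liver. The means were 322 ± 105 in PB livers and 47.5 ± 29.9 in control livers (SD, n = 10 each), and the log2 fold change was 3.07 (standard error 0.37, adjusted p = 3.82e-06). The control mean lay under the filter of 50, and with every signal under 50 set to 50 the log2 fold change was 2.39.

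Orm2 read 512 to 7369.8 in PB livers, with a median of 831, and 167 to 1314 in control livers, with a median of 385. Only 3 PB livers lay above all control livers, those of mice 11, 12 and 16, but the lowest PB liver was higher than 6 of the control livers. The log2 fold change was 1.58 (standard error 0.44, adjusted p = 0.0205). Orm2 was not called by the methods' t-test on the linear signal (adjusted p = 0.230) or by Welch's form on log2 signal across all probe sets (Orm2, adjusted p = 0.0506), and it was called in limma in all 20 fits that left out 1 liver.

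Orm1, the neighbour of both, was not called. Its signal was 10231 to 15367 in PB livers, with a median of 12339.8, and 10890.4 to 15372 in control livers, with a median of 12744. The groups overlapped, and the log2 fold change was -0.029 (standard error 0.075, 95% confidence interval -0.18 to 0.12, adjusted p = 0.836).

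The promoters of Orm3 and Orm2, the 2 members that rose, are shown with that of Saa4, which fell, and those of Saa1 and Lcn2, which varied widely between animals. RefSeq promoter windows (build GRCm38.p6, 250 bases before to 50 after the start site) were found for 8 of the 10 genes. Each is printed 5′ to 3′ on the strand of its gene, with matches to the C/EBP motif TTGCNNAA in capitals. The windows are chr4:63355908-63356207 (+) for Orm3, chr4:63362199-63362498 (+) for Orm2, chr7:46732554-46732853 (-) for Saa4, chr7:46742931-46743230 (-) for Saa1 and chr2:32387690-32387989 (-) for Lcn2.
Orm3: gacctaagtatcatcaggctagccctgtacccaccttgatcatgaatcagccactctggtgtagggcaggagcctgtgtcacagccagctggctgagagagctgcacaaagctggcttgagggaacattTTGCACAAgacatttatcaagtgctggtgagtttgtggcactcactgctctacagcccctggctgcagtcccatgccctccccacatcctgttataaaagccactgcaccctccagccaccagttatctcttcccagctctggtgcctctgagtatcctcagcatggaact
Orm2: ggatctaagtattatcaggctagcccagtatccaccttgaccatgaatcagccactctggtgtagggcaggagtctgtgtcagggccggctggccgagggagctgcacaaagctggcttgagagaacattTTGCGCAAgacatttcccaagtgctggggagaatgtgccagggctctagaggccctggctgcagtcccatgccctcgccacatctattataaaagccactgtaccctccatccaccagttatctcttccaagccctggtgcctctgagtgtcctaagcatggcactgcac
Saa4: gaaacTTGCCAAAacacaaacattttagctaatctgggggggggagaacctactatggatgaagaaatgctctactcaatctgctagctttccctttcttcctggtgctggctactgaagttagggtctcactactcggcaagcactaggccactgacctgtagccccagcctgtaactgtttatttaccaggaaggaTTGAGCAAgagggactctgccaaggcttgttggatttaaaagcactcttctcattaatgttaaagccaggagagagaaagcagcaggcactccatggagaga
Saa1: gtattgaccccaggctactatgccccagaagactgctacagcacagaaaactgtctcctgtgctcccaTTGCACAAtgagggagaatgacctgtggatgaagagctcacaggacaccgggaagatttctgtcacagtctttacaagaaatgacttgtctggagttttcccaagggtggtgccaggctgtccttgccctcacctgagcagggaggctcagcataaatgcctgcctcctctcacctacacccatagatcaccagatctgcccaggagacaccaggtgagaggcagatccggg
Lcn2: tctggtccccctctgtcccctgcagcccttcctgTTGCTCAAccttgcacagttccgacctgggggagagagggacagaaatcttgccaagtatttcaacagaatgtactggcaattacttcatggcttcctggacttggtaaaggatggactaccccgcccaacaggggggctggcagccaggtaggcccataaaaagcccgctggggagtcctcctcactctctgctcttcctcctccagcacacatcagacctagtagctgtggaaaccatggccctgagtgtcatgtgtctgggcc
The C/EBP motif, sought on both strands, was in 7 of the 8 windows, all but that of Apcs, and in 10.8% of 32841 promoter windows. Positions are counted from the start site of each window, which for Orm3, Saa1 and Saa3 lies inside the outer bounds of the gene. Orm3 and Orm2 held the C/EBP motif at nearly the same place of the window, TTGCACAA from -121 to -114 and TTGCGCAA from -120 to -113. Their windows were identical at 263 of 295 aligned bases (89.2%). Both held the TATA box letters TATAAA, found in 13.6% of all windows and in none of the other 6 member windows. The STAT motif TTCNNNGAA was in Apcs alone of the 8 (8.30% of all windows), and the NF-kB letters, GGGA and CC with any 4 bases between them, in none of the 8 (20.7% of all windows). The nuclear receptor half-site AGGTCA was in Saa1, Saa2 and Saa4 (16.3% of all windows), and the glucocorticoid receptor half-site AGAACA in Orm2 and Apcs (19.0%). A match describes letters in these windows and is not a binding site shown by these data. The C/EBP letters were tightened after matches were seen: the first search used TTNNGNAA, which 40.7% of all windows held and which was likewise in 7 of the 8 member windows, and TTGCNNAA replaced it.

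The serum amyloid A proteins are apolipoproteins of high density lipoprotein. Saa1 and Saa2 are the main acute phase forms of liver, Saa3 is also made outside hepatocytes, and Saa4 is the constitutive form. The 4 genes form a cluster on chromosome 7, in the order Saa3, Saa4, Saa1 and Saa2. Saa4 was the member that fell. On probe set 1419319_at it read 403 to 1245 in PB livers, with a median of 616, and 894 to 3881 in control livers, with a median of 1649. In 9 of 10 PB livers the signal was below that of all control livers, the exception being mouse 18. The means were 680.3 ± 251 in PB livers and 1983 ± 1028 in control livers (SD, n = 10 each), which gave -1.44 on the log2 scale (standard error 0.25, adjusted p = 0.000440).

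On the other Saa4 probe set, 1419318_at, the signal was 3800 to 5725 in PB livers, with a median of 4827, and 4755 to 11760.2 in control livers, with a median of 7407. Here 4 PB livers lay below all control livers and the rest overlapped. The fit gave -0.67 on the log2 scale (standard error 0.15, adjusted p = 0.00496). As a description, the 2 probe sets correlated at r = 0.746 over PB livers and 0.953 over control livers.

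Saa1 and Saa2 were lower in PB livers by their medians but were not called. Saa1 on 1450788_at read 1147 to 18809 in PB livers, with a median of 5188, and 3601 to 20802 in control livers, with a median of 15335. In PB livers 5 mice lay below all control livers, while mice 11, 12, 16 and 18 lay at 14854 or above. PB over control was -1.07 on the log2 scale (standard error 0.54, adjusted p = 0.207). The other Saa1 probe set, 1419075_s_at, gave nearly the same order of animals (r = 0.997 over PB livers and 0.999 over control livers) and gave -1.25 (standard error 0.63, adjusted p = 0.206). The accession given for it is that of Saa2, and Saa1 and Saa2 are near-identical copies whose promoter windows were identical at 287 of 299 aligned bases (96.0%), so these 3 probe sets cannot be assigned to 1 gene each with certainty.

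Saa2 on 1449326_x_at had the largest SD of log2 signal over PB livers. It read 205 to 15005 in PB livers, with a median of 772, and 517 to 13234 in control livers, with a median of 7256. Mice 11, 12 and 16 lay above all control livers and 5 PB mice below all of them, so the PB group lay on both sides of the control group. The fitted difference was -1.48 on the log2 scale (standard error 0.93, 95% confidence interval -3.40 to 0.43, adjusted p = 0.318).

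Saa3 read 98.2 to 3643 in PB livers, with a median of 191, and 103 to 567 in control livers, with a median of 247. The arithmetic mean was higher in PB livers (674 ± 1088) than in control livers (297 ± 172; SD, n = 10 each) while the median was lower, and mouse 12 alone held the value of 3643, against 925 in the next PB liver. The fitted difference was 0.34 on the log2 scale (standard error 0.53, adjusted p = 0.727), and -0.048 without that liver.

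Lcn2, which binds the iron-carrying siderophores of bacteria, had a like pattern. Its signal ran from 42.4 to 8591 in PB livers, with a median of 176, and from 49.6 to 2137 in control livers, with a median of 255. The 2 highest livers were those of PB mice 12 and 11, and the lowest was also that of a PB mouse, number 13. PB over control was 0.50 on the log2 scale (standard error 0.94, adjusted p = 0.775), and 0.0066 without mouse 12. Neutrophil markers, 2 of 11 of which passed the filter, summed to 188 to 397 in PB livers and 257 to 492 in control livers, and macrophage and Kupffer cell markers, 11 of 12 tested, to 2808 to 6123 in PB livers and 3764 to 5888 in control livers. Both sums were highest among PB livers in mouse 12 (397 and 6123). Of the neutrophil markers, S100a9 was called lower at a low signal (mean 32.5 in PB livers and 69.3 in control livers, adjusted p = 0.0234), and C1qa was the macrophage marker called, also lower (adjusted p = 0.0425). Their part in the Lcn2 and Saa3 values was not tested.

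Haptoglobin, which binds free haemoglobin, and Apcs, the mouse pentraxin that binds amyloid and dead cells, were not called. Hp read 10272 to 15737 in PB livers, with a median of 13835, and 12082 to 16938 in control livers, with a median of 14361. The groups overlapped, and the log2 fold change was -0.098 (standard error 0.079, 95% confidence interval -0.26 to 0.064, adjusted p = 0.454). Apcs read 5896 to 13700 in PB livers, with a median of 7663, and 7039 to 11857 in control livers, with a median of 8493. PB livers lay on both sides of the control group, 2 above and 4 below all control livers, and the log2 fold change was -0.10 (standard error 0.14, adjusted p = 0.692).

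**Figure D2:**
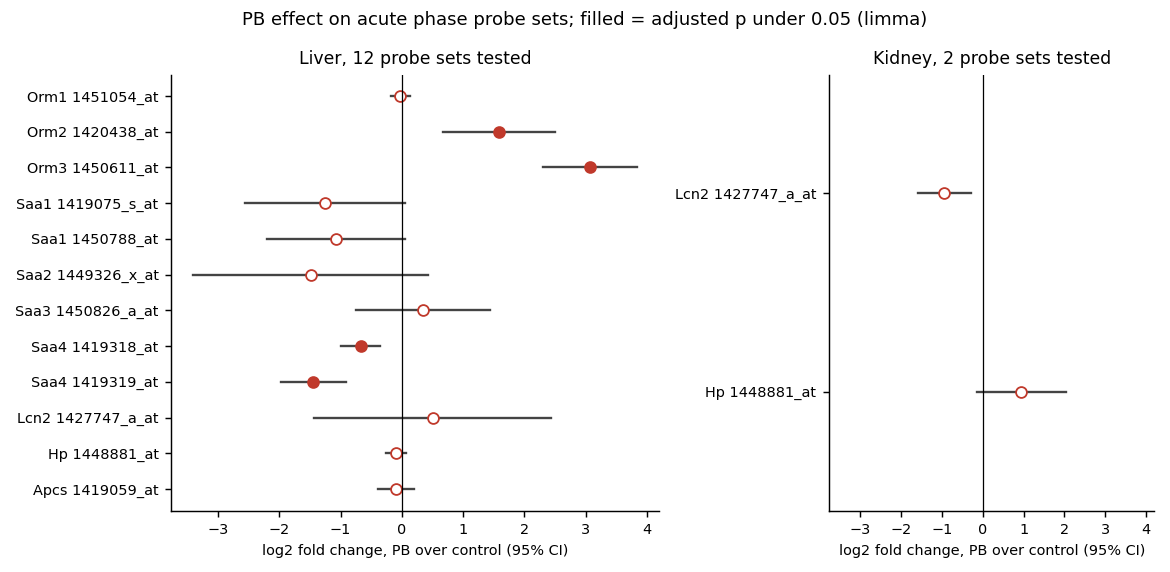
Log2 fold change of PB over control with its 95% confidence interval for each acute phase probe set tested, liver left and kidney right, 10 mice per group, filled where the adjusted p was under 0.05. Orm2 and Orm3 lie to the right of 0 and both Saa4 probe sets to the left in liver, while the intervals of Saa2 (-3.40 to 0.43) and Lcn2 (-1.43 to 2.44) are wide.

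The spread between animals set Saa1, Saa2, Saa3, Lcn2 and Orm2 apart from most of the array. The SD of log2 signal over PB livers was 2.72 for Saa2, the largest of 18981 probe sets tested, and 2.64 for Lcn2, against a median of 0.22 over all of them. It was 1.94 and 1.69 for the Saa1 probe sets, 1.67 for Saa3 and 1.20 for Orm2, all above the 99th percentile. Over control livers it was 1.89 for Saa2, 2.06 for Lcn2, 1.17 and 0.96 for Saa1, 0.88 for Saa3 and 1.03 for Orm2, against a median of 0.25. Orm1 (0.19 in PB livers and 0.16 in control livers) and Hp (0.19 in PB livers and 0.18 in control livers) were below those medians. Saa4 gave 0.19 in PB livers and 0.51 in control livers on 1419318_at, and 0.49 and 0.76 on 1419319_at. Apcs gave 0.43 in PB livers and 0.25 in control livers, and Orm3 0.44 and 1.24. High variability was thus not shared by all members.

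A test of the spread itself, on absolute deviations of log2 signal from the group median, called 0 of 12 members in liver and 0 of 2 in kidney. Over all probe sets limma called 0%, none of 18981 in liver and none of 19229 in kidney (864 and 649 had an unadjusted p under 0.05). The unadjusted p was under 0.05 for 4 members, wider in PB livers for Saa2 (p = 0.0361 in limma) and Saa1 1419075_s_at (p = 0.0414), and narrower for Orm3 (p = 0.0483) and Saa4 1419318_at (p = 0.00643). Only 4 of 10 control livers reached 50 for Orm3, and with values under 50 set to 50 its sign turned (0.11).

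The same animals were high for most members. Within each group the signal on Saa1 1450788_at was set against that of the other 11 probe sets, in a family of 28 relations of log2 signals chosen after seeing the data and tested by permutation (100000 resamples, two-sided, adjusted over the 28). Lcn2 followed Saa1 over PB livers (r = 0.909, rho = 0.830, adjusted permutation p = 0.00123 for r and 0.00873 for rho, n = 10) and over control livers (r = 0.791, rho = 0.867, adjusted permutation p = 0.0152 and 0.00534, n = 10). Without the 2 livers farthest from the median of Saa1, r was 0.902 over PB livers and 0.777 over control livers. Orm2 followed it as well over PB livers (r = 0.809, rho = 0.952, adjusted permutation p = 0.00123 and 0.000420, n = 10, r = 0.728 without 2 livers) and over control livers (r = 0.845, rho = 0.842, adjusted permutation p = 0.00567 and 0.00760, n = 10, r = 0.764 without 2 livers).

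Apcs moved over a narrower range with the same animals, with r = 0.948 to Saa1 over PB livers (rho = 0.964, adjusted permutation p = 7e-05 and 0.00028, r = 0.929 without 2 livers) and r = 0.776 over control livers (rho = 0.891, adjusted permutation p = 0.0166 and 0.00364, r = 0.700 without 2 livers). Orm3 followed Saa1 less closely, with r = 0.698 over PB livers (rho = 0.745, adjusted permutation p = 0.0379 and 0.0251, r = 0.574 without 2 livers) and r = 0.413 over control livers (rho = 0.552, adjusted permutation p = 0.234 and 0.117, r = 0.416 without 2 livers). Saa4 1419318_at followed Saa1 over PB livers (r = 0.879, rho = 0.879, adjusted permutation p = 0.00180 and 0.00443, r = 0.824 without 2 livers). It did so over control livers as well (r = 0.747, rho = 0.855, adjusted permutation p = 0.0238 and 0.00614, r = 0.551 without 2 livers). Saa4 1419319_at passed over control livers (r = 0.722, rho = 0.709, adjusted permutation p = 0.0320 and 0.0357, r = 0.443 without 2 livers). Over PB livers it did not pass (r = 0.526, rho = 0.503, adjusted permutation p = 0.128 and 0.154, n = 10, r = 0.425 without 2 livers). Hp passed by only 1 of the 2 measures in each group. It gave r = 0.605 over PB livers (rho = 0.709, adjusted permutation p = 0.0730 and 0.0362, r = 0.333 without 2 livers). Over control livers it gave r = 0.663 (rho = 0.648, adjusted permutation p = 0.0495 and 0.0613, r = 0.822 without 2 livers). Probe sets of 1 array share their scaling and RNA, and whether the 2 groups differ in these relations was not tested. PB livers lay mostly at the 2 ends of the Saa1 range, 5 of them below all control livers and 4 at 14854 or above, so the PB correlations rest largely on that separation and could not be tested within either end.

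**Figure D3:**
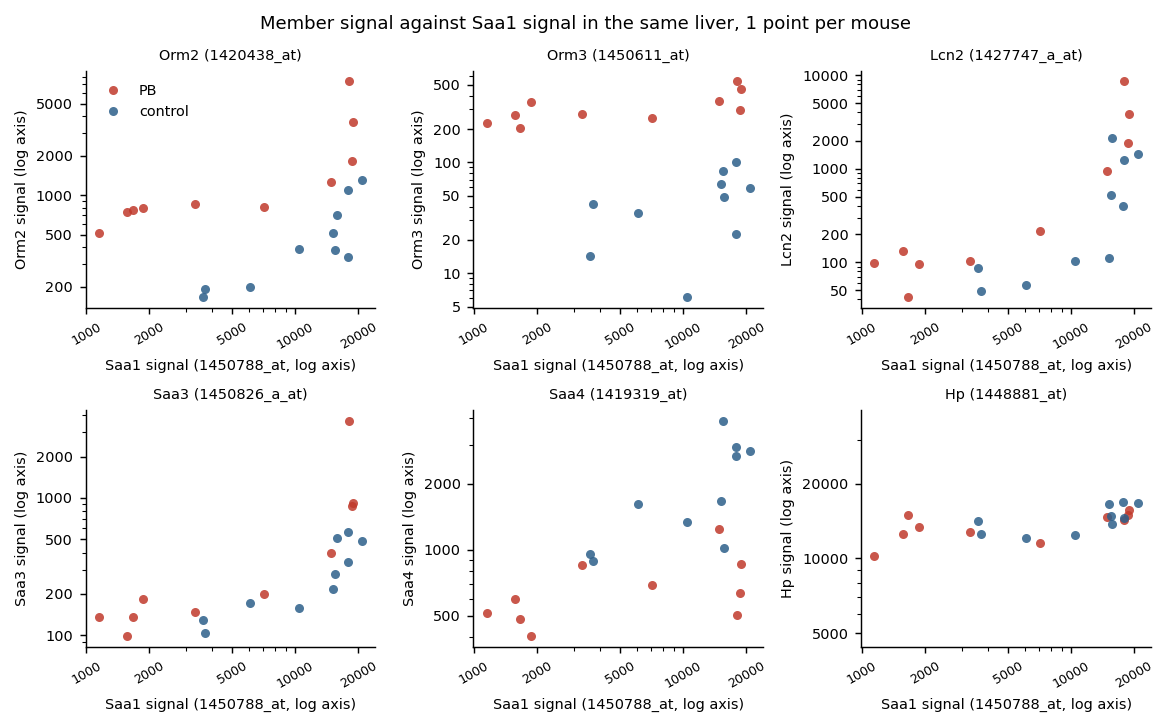
Signal of 6 members against the signal of Saa1 1450788_at in the same liver (both log axes), 1 point per mouse, 10 PB and 10 control. Orm2 and Orm3 are higher in PB livers at like Saa1 signal, Saa4 1419319_at lower, and Saa3 and Lcn2 climb steeply toward the highest Saa1 signals.

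Since Saa1 differed so widely between animals, PB and control livers were also compared with the log2 signal of Saa1 1450788_at as a covariate, an alternative chosen after seeing the data that assumes 1 slope for both groups. At a like Saa1 signal the log2 fold change was 2.29 for Orm2 (adjusted p = 1.07e-05) and 3.36 for Orm3. It was 2.10 for Lcn2 (standard error 0.52, adjusted p = 0.0115). With Lcn2 as the covariate, likewise chosen after seeing the data, Saa1 was lower by both probe sets (-1.33 and -1.55, adjusted p = 0.00247 and 0.00134), as was Saa2 (-1.94, adjusted p = 0.00108). Apcs took opposite signs, -0.17 with Lcn2 as the covariate (adjusted p = 0.0127) and 0.15 with Saa1 (adjusted p = 0.210). Without a covariate none of Lcn2, Saa1, Saa2 and Apcs was called. Each covariate is itself a member that differed between the groups in these livers without being called, and the Lcn2 and Saa1 values are mirror images of one relation, so they describe these livers and are not independent evidence of a PB effect on either gene.

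The genes whose pattern over the 20 livers was most like that of the members were Lrg1 (r = 0.944, rho = 0.917), a plasma glycoprotein of the acute phase, and Lbp (r = 0.944, rho = 0.952), which carries bacterial lipopolysaccharide. Likeness was the correlation with the mean of the members' scaled deviations from their group means, over 9965 other genes and as a description. Slc3a1 (r = 0.919), an amino acid transporter subunit, Serpina10 (r = 0.913), an inhibitor of clotting factors, and the neighbouring Tmem176a (r = 0.908) and Tmem176b (r = 0.903) came next. Without the livers of mice 12 and 11, the farthest from the median, r was 0.917 for Lrg1, 0.928 for Lbp and 0.869 to 0.892 for the other 4. Of these 6 genes, only Serpina10 was called between the groups, lower in PB livers with a log2 fold change of -0.34 (adjusted p = 0.0232). Lrg1 (-0.61, adjusted p = 0.0575) and Lbp (-0.43, adjusted p = 0.168) were not called.

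Among 23 other positive acute phase proteins tested in liver, 1 was called higher and 6 lower, with a median log2 fold change of -0.27. Over all 9975 genes tested in liver 6.45% were called higher and 7.72% lower, and the median was -0.016. The gene that rose was Crp, a pentraxin that responds only weakly in mice, with a mean of 8991 ± 484 in PB livers and 7041 ± 719 in control livers (log2 fold change 0.36, adjusted p = 6.31e-05). Mt2, a zinc-binding metallothionein, fell by 3.26 on the log2 scale (adjusted p = 0.0179), with signals of 69.2 to 2809.9 in PB livers and 90.1 to 12895 in control livers. Steap4, a metalloreductase, averaged 861 ± 296 in PB livers and 2681 ± 1234 in control livers (log2 fold change -1.54, adjusted p = 0.000264). Itih3, a hyaluronan-binding inhibitor chain, fell by 0.52 (adjusted p = 0.00113). The other 3 were the fibrinogen chains Fga and Fgb and the lectin Mbl1.

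Negative acute phase proteins, which fall during inflammation, gave 1 higher and 1 lower of 10 tested. The shares over all 9975 genes were 6.45% and 7.72%, so no result about the list is read from these counts. Serpina6, the corticosteroid-binding globulin, averaged 2930.3 ± 598 in PB livers and 1424 ± 220 in control livers (log2 fold change 1.03, adjusted p = 6.58e-07). Ahsg, fetuin A, fell by 0.20 (adjusted p = 0.00869). The median of the list was -0.07.

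The receptors, kinases and transcription factors upstream were lower where they were called. The cytokines Il6 and Tnf lay under the filter in liver and were not tested. Il1b was not called (log2 fold change -0.046, adjusted p = 0.878 in limma). Of 23 signalling genes and transcription factors tested, 0 were called higher by limma and 8 lower, with a median of -0.21. Over all genes tested in liver 6.45% were called higher and 7.72% lower. Il1r1, the receptor for interleukin 1, averaged 192 ± 82.2 in PB livers and 597 ± 319 in control livers (log2 fold change -1.52, adjusted p = 0.00179). Osmr, the receptor subunit for oncostatin M, fell by 0.86 (adjusted p = 0.00750), and Il6ra, the receptor for interleukin 6, fell by 0.79 (adjusted p = 0.00420), with means of 46.8 in PB livers and 89.4 in control livers for Osmr and of 98.6 in PB livers and 178 in control livers for Il6ra. Nfkbiz, an NF-kB cofactor, fell by 0.64 (adjusted p = 0.0140). Stat3, Jak1, Rela and Il1rap were the other 4 called lower. Of 6 binding partners and receptors of the members tested, 3 were called lower, beside 7.72% of all genes tested in liver. They were Cd163, the scavenger receptor for haptoglobin and haemoglobin (-0.50), Scarb1, the high density lipoprotein receptor (-0.34), and Lrp1 (-0.26).

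In kidney the members were low. In control mice, 11 of 11 probe sets tested were called higher in liver than in kidney, beside 35% of the 21188 probe sets tested. Of these, 10 had passed the filter through liver alone, so nothing is read from that count, and the levels are a description. Orm3 was under 50 in both tissues of control mice and was not tested. With the kidney mean set to 50 for the fold, Hp was at least 289-fold higher in liver and Orm1 at least 258-fold. Of the probe sets tested, Lcn2 had the smallest fitted log2 difference between tissues, at 615 ± 736 in control livers and 51.8 ± 27.4 in control kidneys (log2 fold change 2.55, standard error 0.62, adjusted p = 0.000720), and control livers and kidneys overlapped for it.

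Lcn2 and Hp were the 2 members that passed the filter in kidney. Of these, limma called 0, at 1 unadjusted p under 0.05, and the methods' t-tests also called 0. Each passed through 1 group alone, Lcn2 through control kidneys (mean 51.78, PB 29.02) and Hp through PB kidneys (mean 51.04, control 24.96). The other group lay under 50 by its mean, so these tests and the fits without 1 kidney are a description. The share called over all 19229 probe sets tested in kidney was 1.79% higher and 1.47% lower, and neither probe set met the study's thresholds (0.504% of all). Lcn2 read 11.2 to 89.5 in PB kidneys, with a median of 24.7, and 29.6 to 106.8 in control kidneys, with a median of 37.1. In 7 of 10 PB kidneys it was below all control kidneys, the exceptions being mice 12, 16 and 19. The fitted difference was -0.94 on the log2 scale (standard error 0.31, adjusted p = 0.100), and it was called without the PB kidney of mouse 12 (-1.15, adjusted p = 0.0216). Where values under 50 were set to 50 it was -0.16, and most of these signals lay under 50. Neutrophil markers, 1 of 11 of which was tested in kidney and not called, summed to 100.3 to 347.6 in PB kidneys (median 165.7) and 166.4 to 349.6 in control kidneys (median 252.9), and were highest among PB kidneys in mouse 12. Kidney injury genes, 5 of 8 tested with Fga called lower, summed to 2739.6 to 4080.9 in PB kidneys and 2770.0 to 5290.8 in control kidneys, highest in PB mouse 12 and control mouse 2. Their part in the Lcn2 values was not tested.

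The highest Lcn2 in PB kidneys was in mouse 12 and the highest in control kidneys in mouse 2, each of which also had the highest Lcn2 in liver of its group. Over the 10 mice of a group, kidney and liver Lcn2 gave r = 0.656 in PB mice (rho = 0.612, adjusted permutation p = 0.0465 and 0.0822) and 0.614 in control mice (rho = 0.430, adjusted permutation p = 0.0730 and 0.220). Without the 2 mice farthest from the median, r was 0.395 in PB mice and 0.799 in control mice, so the relation in PB mice rests on those animals.

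Hp read 7.5 to 143.2 in PB kidneys, with a median of 29.2, and 3.1 to 60.8 in control kidneys, with a median of 22.6. PB kidneys of mice 12, 15 and 19 were above all control kidneys and the others overlapped, and the fitted difference was 0.95 on the log2 scale (standard error 0.53, adjusted p = 0.358). Orm1, under the filter at 2.6 to 54.1 in PB kidneys and 1.6 to 25 in control kidneys, was highest in the same 3 PB kidneys. Fat cell markers moved with both genes over PB kidneys. They summed to 945 to 7338 in PB kidneys and 803 to 1513 in control kidneys, and 3 of 4 tested were called higher in PB kidneys, Adipoq (log2 fold change 2.54), Ucp1 (2.88) and Fabp4 (1.07), beside 2.17% of 10082 genes called higher and 1.57% lower in kidney. Their sum was 7338 in the PB kidney of mouse 12, 5244 in that of mouse 15, 4167 in that of mouse 17 and 2658 in that of mouse 19. Over PB kidneys the sum and Hp gave r = 0.775 (rho = 0.782, adjusted permutation p = 0.0164 and 0.0163, r = 0.495 without 2 kidneys), and the sum and Orm1 gave r = 0.866 (rho = 0.903, adjusted permutation p = 0.00367 and 0.00252, r = 0.844 without 2 kidneys). Over control kidneys neither relation passed, with r = 0.447 for Hp (rho = 0.552, adjusted permutation p = 0.201 and 0.117, r = 0.557 without 2 kidneys) and r = 0.547 for Orm1 (rho = 0.430, adjusted permutation p = 0.118 and 0.220, r = 0.570 without 2 kidneys). The part of fat cell RNA in these values was not tested.

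**Figure D4:**
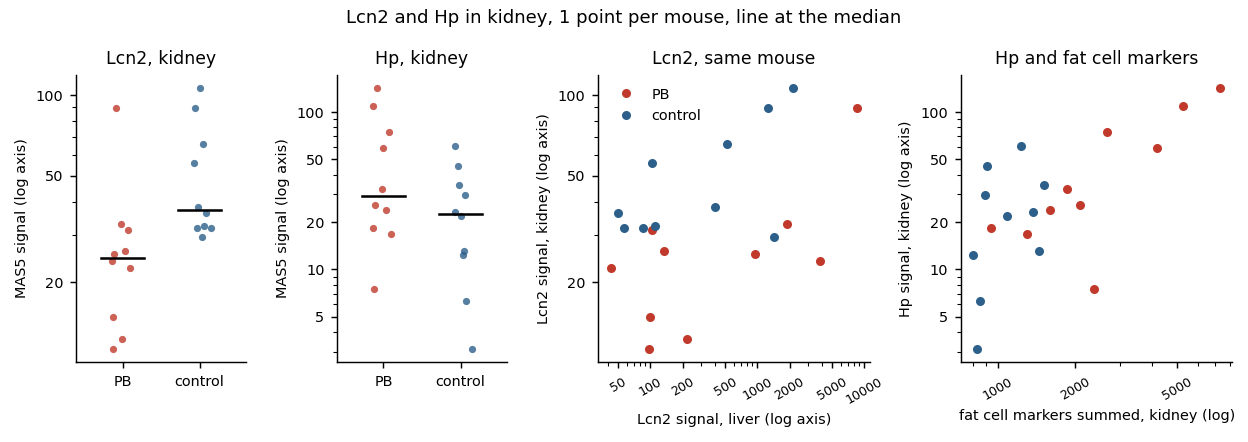
Lcn2 and Hp signal in kidney by group (log axis, line at the median of 10 mice), kidney against liver Lcn2 of the same mouse, and kidney Hp against the summed signal of 6 fat cell markers (log axes). Most Lcn2 points of PB kidneys lie below those of control kidneys, and the 2 highest Hp points belong to the 2 PB kidneys with the highest fat cell sums.

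The other members stayed under 50 by their means in both kidney groups, with Orm3 at 1.0 to 4.6 in PB kidneys and 1.1 to 7.5 in control kidneys. Of the lists, Fga (log2 fold change -0.72, adjusted p = 0.0213) and Osmr (-0.45, adjusted p = 0.0336) were called lower in kidney as they were in liver. The PB effect in liver minus that in kidney was called for 1 of 12 member probe sets, Orm3 (2.97, standard error 0.54, adjusted p = 0.000255), beside 3.13% called higher and 3.08% called lower of 21866. All Orm3 signals in kidney lay far under 50, so no PB effect could be measured there, and the value mainly restates the liver difference. With values under 50 set to 50 the Orm3 contrast was 2.39, the same as in liver alone.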

How the data were processed

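The authors hybridised liver and kidney RNA to Affymetrix Mouse Genome 430 2.0 arrays, and the deposited values are, per the submitters' processing notes, MAS5 signal intensities from GCOS, on a linear scale. Each array was scaled to a trimmed mean of 150, as the methods state. The arrays gave 1 value per probe set with no detection calls used here, so their number, 10 per group, limits the precision. Samples were grouped by tissue and treatment labels. Signals under 1 were set to 1 and log2 transformed, and a probe set whose mean reached 50 in either group was tested with limma 3.58.1 in R 4.3.3 (moderated two-sided tests with an intensity trend, Benjamini-Hochberg), in place of the methods' t-test, which was an alternative.

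The contrast of liver and kidney effects used all 40 arrays, where a mean of 50 in any of the 4 groups was required. Probe sets were named from the platform annotation (34945 with 1 gene, 932 with several, 9160 with none), and 34741 matched the current gene table. Every member probe set is reported. From each of 10 gene lists up to 4 called genes with the largest change were named, and the 6 genes most like the members in pattern; the gene of a list is its probe set with the highest mean signal. Stat3, Jak1, Rela, Il1rap, Fga, Fgb and Mbl1 were named to complete their counts. The members and lists were chosen with earlier results of these data known. Alternatives covered the filter, the floor, quantile and median scaling, Student and Welch tests, robust fits, the array number, a fit of all arrays, the animal as a block and leaving out each array. The fits were first tested on simulated data. Liver and kidney with the same donor number come from the same animal by the labels; their deviations had a median r of 0.0790 over 16344 probe sets (-0.0677 to 0.188), and for 6 of 20 animals the kidney of the same animal gave the highest r. The Saa1 and Lcn2 covariates, the 28 relations and the final C/EBP motif were chosen after seeing the data. Promoters were from RefSeq (8 of 10 genes matched; aligned globally with Biopython 1.88), and permutation tests ran in Python 3.11.15.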

Additional observations from a re-analysis of the deposited data

Results flagged for a closer look

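Among member probe sets tested in a tissue, 1 animal lay far from the other 9 of its group in 4 cases by Dixon's criterion on linear signal. All 4 were PB mouse 12. Kidney probe sets under the filter were not counted. Some of them also had 1 animal far from the rest, such as control mouse 7 for Orm3 (7.5, next 3.0). The criterion's rate of about 1 in 20 groups holds for a normal spread. Linear signals of these genes were skewed and several groups were screened, so no chance rate is read from these cases. The liver of PB mouse 12 read 7369.8 for Orm2 (next 3583.8), 3642.7 for Saa3 (next 925.3) and 8590.6 for Lcn2 (next 3808.3), and its kidney read 89.5 for Lcn2 (next 33.0). The 3 liver genes followed one another over the PB livers, so these are not separate events. The log2 fold change without that liver was 1.3 for Orm2 (adjusted p = 0.0302 in limma), -0.048 for Saa3 and 0.0066 for Lcn2.

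For Orm3 the log2 difference of PB and control in liver minus that in kidney was 2.97 (standard error 0.54, adjusted p = 0.000255 in limma), with all 10 PB livers above all control livers. Kidney signals were at most 4.6 in PB mice and 7.5 in control mice, so a PB effect could not be measured in kidney, and with values under 50 set to 50 the contrast was 2.39, the liver difference itself.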

How the results depend on the processing

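Orm3 and both Saa4 probe sets stayed called in liver under all 15 alternatives and without any 1 liver. The number of members called higher in liver was 1 instead of 2 by the methods' t-test on linear signal and by Welch's test on log2 signal, both losing Orm2, and 1 member met the study's thresholds with the linear t-test p, against 3. With signals under 50 set to 50, the liver effect minus the kidney effect was called higher for 2 members and lower for 2, but the floor put every kidney signal of Orm2, Orm3 and Saa4 at 50, so these counts only repeat the liver calls. The number called lower in kidney was 0 to 1 when each array was left out, the 1 being Lcn2 without PB kidney 12. Of these kidney fits, Lcn2 still passed the filter in 18 and Hp in 17, and the others hold no value for them. With the same floor the sign turned for the spread of Orm3 in liver (0.11) and of Lcn2 in kidney (-0.16). It also turned for the Apcs liver effect minus the kidney effect (-0.087). With Saa1 as covariate it turned for Orm1 (0.079) and Apcs (0.15), and none of these values was called. Some uncalled values changed sign when 1 array at a time was left out. In liver the range was -0.048 to 0.53 for Saa3 and -0.062 to 0.0034 for Orm1. For the liver effect minus the kidney effect it was -0.14 to 0.56 (Saa3) and -0.54 to 0.010 (Saa4 1419319_at). For the spread in liver it was -0.25 to 0.13 (Orm2), -0.13 to 0.58 (Lcn2) and -0.032 to 0.018 (Hp). For the spread in kidney it was -0.088 to 0.11 (Lcn2, 18 fits) and -0.041 to 0.29 (Hp, 17 fits). With the animal as a fixed replicate block the Orm3 liver effect minus the kidney effect was again 2.97 (adjusted p = 0.00433 in limma). In that contrast 1 member was called higher and 0 lower. The block changed no call of liver against kidney in control mice. Kidney signals under 50 limit what can be compared there, and the causes of these changes were not tested.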
